A study of Mus musculus with 7 samples.

Results

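The genes described here are 7 secreted or membrane-bound effectors of T cells, namely Ifng, Tnf, Lta, Il2, Il4, Fasl and Tnfsf14, out of 22350 protein-coding genes in the mouse annotation. Their regions were chosen by position alone. A region belonged to a gene when its midpoint lay inside the gene body or within 50 kb of it, in the GENCODE annotation (vM1) of the genome build NCBIM37, which is mm9. The windows held 8 distinct Runx3-bound regions of 4934 in the deposited list, and 77 distinct H3K4me1-marked regions of 76705. The windows of Tnf and Lta overlap almost completely and share every one of their regions, so the 7 genes lie in 6 separate windows that cover 644447 bp. The study mapped by chromatin immunoprecipitation and sequencing (ChIP-seq) where the transcription factor Runx3 binds in resting CD8+ T cells. Cells came from the spleens of wild-type ICR mice, were pooled from 18 animals and were isolated with anti-CD8 magnetic beads, with a purity above 95% in the labels. The 7 libraries comprised 3 Runx3 libraries from 2 immunoprecipitation repeats with a home-made polyclonal antibody, 2 H3K4me1 libraries with a monoclonal antibody, and 2 control libraries with non-immune serum (NIS). All libraries shared the same strain and cell source, and no library came from cells lacking Runx3 or from activated cells.

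Runx3 belongs to the Runt-domain family of transcription factors, which bind a short DNA motif, TGTGGT and close variants, together with the partner CBFβ. In the CD8+ lineage Runx3 is known for silencing Cd4 and for a part in the cytotoxic programme, in which killer cells release interferon gamma and display Fas ligand after activation. Monomethylation of histone H3 at lysine 4 (H3K4me1) marks enhancers, both active and poised, and often flanks active promoters. Fas ligand and the TNF-family cytokines act through death-domain or TRAF-binding receptors on other cells, whereas interferon gamma, Il2 and Il4 act through JAK-STAT receptors.

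The sequences under the middle of 4 Runx3-bound regions are shown because they carry, or lack, the RUNX motif on which the description below turns. Each is the 200 bases around a region's midpoint, read 5′ to 3′ on the plus strand of the NCBIM37 reference genome and not from the ICR mice. The number in a region's name is the distance of its midpoint from the start site of the named gene, negative when upstream. Capitals mark every RUNX motif, which was searched on both strands as the word TGTGGT, its variant ending in C written TGTGGC, the variant with an inner CG written TGCGGT, and the variant with both changes written TGCGGC. A motif on the minus strand is shown as its reverse complement, so that for example TGTGGT on that strand is printed as ACCACA in these plus-strand sequences.
Fasl +9.2 kb (chr1:163709331-163709530, plus strand): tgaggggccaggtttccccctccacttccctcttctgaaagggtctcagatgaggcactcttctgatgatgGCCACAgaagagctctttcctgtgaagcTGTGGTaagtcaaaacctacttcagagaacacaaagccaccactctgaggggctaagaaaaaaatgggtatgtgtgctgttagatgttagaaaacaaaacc
Ifng -21.7 kb (chr10:117856268-117856467, plus strand): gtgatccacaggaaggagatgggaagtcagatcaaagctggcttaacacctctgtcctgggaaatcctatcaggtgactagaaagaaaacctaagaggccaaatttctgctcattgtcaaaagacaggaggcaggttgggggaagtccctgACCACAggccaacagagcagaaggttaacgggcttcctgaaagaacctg
Lta -27.5 kb (chr17:35369720-35369919, plus strand): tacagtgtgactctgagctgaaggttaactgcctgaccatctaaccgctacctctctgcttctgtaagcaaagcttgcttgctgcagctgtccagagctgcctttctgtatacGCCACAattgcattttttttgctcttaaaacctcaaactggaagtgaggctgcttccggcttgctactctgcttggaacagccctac
Tnf +1.3 kb (chr17:35337509-35337708, plus strand): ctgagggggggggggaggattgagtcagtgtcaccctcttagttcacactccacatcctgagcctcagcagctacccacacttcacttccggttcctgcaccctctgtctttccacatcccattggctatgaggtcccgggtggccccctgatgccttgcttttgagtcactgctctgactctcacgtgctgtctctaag
The Fasl +9.2 kb sequence held 2 motifs. The Ifng and Lta sequences held 1 each and the Tnf sequence held none. In the Fasl regions at -10.7, 21.6 and 53.6 kb the 200 central bases held no whole motif, and the one nearest to the midpoint lay outside them at -10.7 kb and across their edge at 21.6 and 53.6 kb. Those motifs are shown in 60 bases around them.
Fasl -10.7 kb (chr1:163729024-163729083, plus strand): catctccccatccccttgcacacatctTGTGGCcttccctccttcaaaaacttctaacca
Fasl +21.6 kb (chr1:163696905-163696964, plus strand): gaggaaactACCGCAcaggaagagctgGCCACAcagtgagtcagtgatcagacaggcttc
Fasl +53.6 kb (chr1:163664910-163664969, plus strand): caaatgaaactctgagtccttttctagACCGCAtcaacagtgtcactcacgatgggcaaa
The motif of Fasl -10.7 kb had an offset of -237 bp from the midpoint. At Fasl +21.6 kb and Fasl +53.6 kb the offsets were -99 bp and -101.5 bp. The Fasl +21.6 kb stretch held 2 motifs within the 60 bases.

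Runx3-bound regions lay in the windows of 4 of the 7 genes, Fasl, Ifng, Tnf and Lta, while Il2, Il4 and Tnfsf14 had none. Over all protein-coding genes, 30.8% had at least 1 Runx3-bound region in the window (6883 of 22350). Fasl had 5 regions, Tnf and Lta shared 2, and Ifng had 1. With a margin of 10 kb Fasl kept 1, Tnf and Lta 1 and Ifng none, and among regions at or above the list's median width Fasl kept 2, Ifng 1, and Tnf and Lta none. At least 2 regions were found for 10.1% of all genes, and at least 5 for 0.537%, or 120 genes. Fasl was the only gene among those 120 whose gene body overlapped its window. H3K4me1-marked regions lay in the windows of all 7 genes, as they did for 79.3% of all genes. The number per gene ran from 3 at Il2 through 7 at Tnfsf14, 9 at Il4, 11 at Ifng and 18 at Fasl to 29 at Tnf and Lta. The median over all genes was 7 H3K4me1-marked regions and 0 Runx3-bound regions. A transcription start site lay inside an H3K4me1-marked region at 4 of the 7 genes, Tnf, Lta, Fasl and Tnfsf14, against 17.7% of all genes. A marked region overlapped the gene body at 5 of the 7, all but Ifng and Il2, against 62.4% of all genes. The lists were called on joined repeats, so a gene has 1 value per list with no replicate error and no test, and neighbouring genes share regions. The order of the counts describes these pooled lists, in which adjacent values were not tested for a difference.

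**Figure D1:**
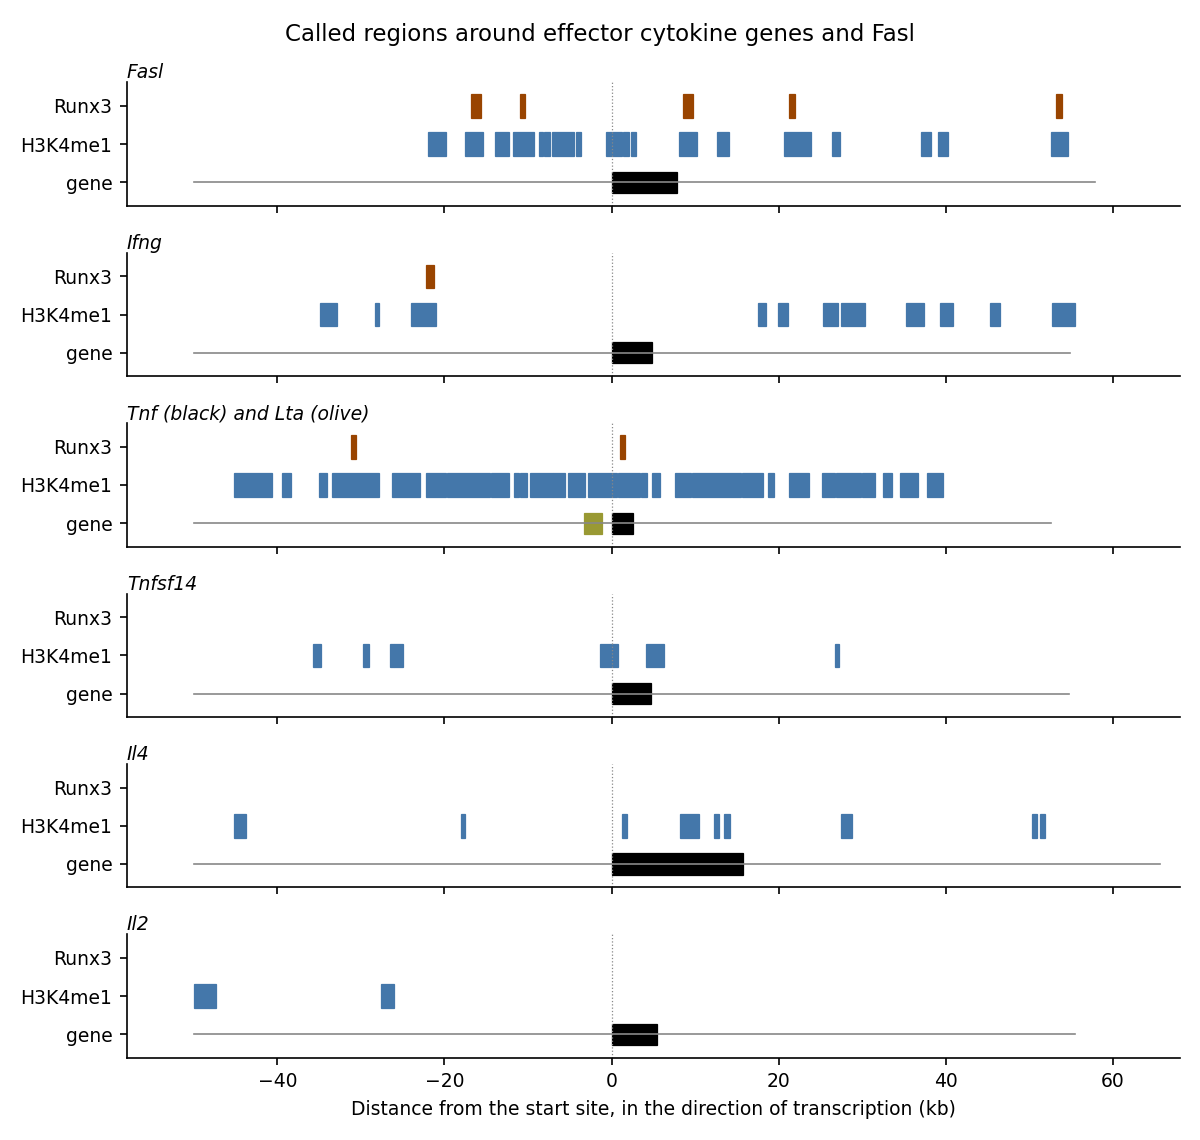
Regions in the windows of the 7 genes, with the distance from the transcription start site in kb along the direction of transcription on the horizontal axis and 1 row per gene. Runx3-bound regions appear at Fasl (5), Ifng (1) and Tnf and Lta (2, shared), and each lies over an H3K4me1-marked region. Il2, Il4 and Tnfsf14 show H3K4me1 alone.

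Fasl encodes Fas ligand, the TNF-family membrane protein with which killer cells trigger apoptosis of target cells bearing Fas. The gene (ENSMUSG00000000817.8) lies on the minus strand at chr1:163710820-163718626 and spans 7807 bp. Of its 5 Runx3-bound regions 2 lay upstream and 3 downstream, and none lay in the gene body. Each was intergenic, and the start site nearest to each was that of Fasl. Of the 5, 4 are described singly.

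The nearest region, Fasl +9.2 kb, spanned chr1:163708844-163710016 and had its midpoint 1390 bp beyond the end of the gene. With 1173 bp it was wide for the list, since 5.49% of all Runx3-bound regions were at least that wide. It lay inside an H3K4me1-marked region of 2122 bp at chr1:163708377-163710498. The midpoints of these 2 regions were 7.5 bp apart. Across the 3889 Runx3-bound regions that overlapped H3K4me1, the median distance between the midpoints was 504.5 bp. Over the 8 regions it ran from 0.5 to 771 bp, and Fasl +21.6 kb (653 bp), Ifng -21.7 kb (759.5 bp) and Tnf +1.3 kb (771 bp) lay above that median. Both RUNX motifs of Fasl +9.2 kb were central, with offsets of -25.5 and 2.5 bp, and a motif for ETS factors lay 13 bp from the nearer one. At least 2 RUNX motifs were held by 69.1% of the list, and the 2 flanking windows of Fasl +9.2 kb held 4.

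Fasl -10.7 kb lay at chr1:163728995-163729586. It was among the narrowest of the list, with 592 bp, since 93.1% of the regions were at least as wide. It held a lone RUNX motif, and its 2 flanking windows held 3. It lay in an H3K4me1-marked region of 2576 bp, with the midpoints 112 bp apart.

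Fasl +21.6 kb spanned 796 bp at chr1:163696636-163697431 and sat in the widest H3K4me1-marked region of the Fasl window, 3190 bp at chr1:163694786-163697975. It held 4 RUNX motifs, a number reached by 25.8% of all Runx3-bound regions. Its 16 ETS motifs included a run of 10 in a tandem GGAA repeat, which is shown with the ETS motifs in capitals.
Fasl +21.6 kb (chr1:163696668-163696713, plus strand): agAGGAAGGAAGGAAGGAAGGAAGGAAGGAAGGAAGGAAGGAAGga
The other 6 ETS motifs lay outside this run, so 10 of the 16 came from simple repeat sequence.

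Fasl +53.6 kb was the most distant, 45779 bp from the gene body at chr1:163664699-163665383, and spanned 685 bp. It held 3 RUNX motifs, a number reached by 45.4% of the list, and its midpoint was 0.5 bp from that of its H3K4me1-marked region of 2024 bp at chr1:163664030-163666053. Beyond the limit of 50 kb, the nearest Runx3-bound region lay 109580 bp from the gene body.

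H3K4me1-marked regions at Fasl numbered 8 upstream, 3 in the gene and 7 downstream, and 5 of the 18 overlapped a Runx3-bound region. They covered 26.4% of the window, and 6.18% of all genes had as large a share or larger. The start site lay in a marked region of 1943 bp at chr1:163717359-163719301, in which no Runx3-bound region was called. The 8 upstream marked regions were 446 to 2689 bp wide.

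Ifng encodes interferon gamma, the cytokine by which T and NK cells activate macrophages and raise antigen presentation. The gene (ENSMUSG00000055170.3) lies on the plus strand at chr10:117878103-117882948 and spans 4846 bp, with no other protein-coding gene in its window. Its Runx3-bound region, Ifng -21.7 kb, spanned 936 bp at chr10:117855900-117856835 in intergenic sequence, and 32.7% of the list was at least as wide. The next Runx3-bound region lay 180438 bp away, so it stood by itself. It held 1 RUNX motif, a TGTGGT on the minus strand 54 bp from the midpoint. Its 2 flanking windows held 4. It also held 9 ETS motifs, 3 GATA motifs and 2 NFAT motifs, and the closest ETS motif was 32 bp from the RUNX motif.

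Around this region H3K4me1 extended over 3055 bp at chr10:117854081-117857135, the widest marked region of the Ifng window. The window held 3 marked regions upstream and 8 downstream. The start site and the whole gene body were bare, since the nearest marked region lay 17505 bp from the start site. H3K4me1 covered 18.5% of the window, a share reached by 15.4% of all genes, and the count of 11 regions was reached by 34.2%. Ifng thus had distal marks on both sides and none near its start.

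Tnf and Lta encode tumour necrosis factor and lymphotoxin alpha, adjacent cytokine genes in the major histocompatibility complex. Tnf (ENSMUSG00000024401.8) lies on the minus strand at chr17:35336326-35338952 and Lta (ENSMUSG00000024402.5) on the same strand at chr17:35340110-35342296. The shared window is dense in genes, with Prrc2a, Aif1, Lst1, Ltb, Nfkbil1, Gm16181, Atp6v1g2 and Ddx39b beside them. A region in it therefore cannot be assigned to Tnf or Lta from position.

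Tnf +1.3 kb was the only Runx3-bound region inside the body of any of the 7 genes. It spanned 594 bp at chr17:35337312-35337905, with its midpoint in an intron of Tnf, and also took in coding exons. It was narrow, since 92.9% of the list was at least as wide. It held no RUNX motif, whereas the 2 flanking windows held 5. It held 2 places with the AP-1 motif, TGACTCA or TGAGTCA, at -76.5 and 66.5 bp from the midpoint. An ETS motif lay at -12 bp and an NFAT motif at 12 bp. Its GC content of 55.7% was the highest of the 8 regions, which otherwise ran from 40.5% to 47.2%.

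Lta -27.5 kb lay in an intron of Nfkbil1 at chr17:35369520-35370118 and spanned 599 bp. It was the exception among the 8 regions in that its nearest start site was not that of a described gene. That start site was of Atp6v1g2, 786 bp away. It held 2 RUNX motifs, with offsets of -277.5 and 16.5 bp, against 1 in the flanking windows.

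H3K4me1 covered 64.2% of the Tnf window and 64.5% of the Lta window. The Tnf share was reached by 12 genes, or 0.0537% of all, and 3 of these overlap that same window. The count of 29 regions was reached by 384 genes, or 1.72%, of which 5 overlap the window. The 594 bp region in Tnf lay in a marked region of 2646 bp at chr17:35335515-35338160, and Lta -27.5 kb in one of 5588 bp at chr17:35366774-35372361. The widest in the window, 5890 bp at chr17:35323475-35329364, overlapped no Runx3-bound region. The start site of Tnf lay in a marked region of 3445 bp and that of Lta in one of 2100 bp. Marked regions covered 95.2% of the Tnf gene body and 83.7% of the Lta gene body.

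Tnfsf14 encodes LIGHT, a TNF-family costimulatory ligand that binds Tnfrsf14 and the lymphotoxin beta receptor. The gene (ENSMUSG00000005824.6) lies on the minus strand at chr17:57328915-57333612, with Cd70, C3 and Gpr108 in its window. It had no Runx3-bound region in the window. The closest lay just past the limit, 53814 bp from the gene body at chr17:57386867-57387985, where the nearest start site is that of Gpr108. Its 7 H3K4me1-marked regions, a number reached by 52.3% of all genes, covered 7.79% of the window. The widest, 2231 bp at chr17:57332818-57335048, held the start site.

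Il2 encodes the growth factor of activated T cells. The gene (ENSMUSG00000027720.6) lies on the minus strand at chr3:37019445-37024881, with Adad1 in its window. It had the sparsest window of the 7, with 3 H3K4me1-marked regions of 1497, 824 and 1815 bp, all upstream, at -26794, -47740 and -49122 bp. They covered 3.90% of the window, and 59.4% of all genes had as large a share or larger. The nearest mark lay 26046 bp from the start site. The nearest Runx3-bound region was 79516 bp from the gene body, nearest to the start site of Il21.

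Il4 encodes the signature cytokine of type 2 helper T cells. The gene (ENSMUSG00000000869.6) lies on the minus strand at chr11:53416484-53432171 and spans 15688 bp, a length that includes a noncoding transcript that extends past the coding ones. Its window holds Kif3a, Il13 and Rad50. It had no Runx3-bound region in the window, and the nearest lay 176388 bp away, the largest distance of the 7. Over all genes the median distance was 129098 bp, and 42.5% were as far or farther. H3K4me1 marked 9 regions, with 4 in the gene, 3 downstream and 2 upstream, and their median width was 603 bp. The 4 in the gene lay at 1509, 9303, 12552 and 13825 bp from the start site. Whether the farther ones lie within the coding transcripts is not given here. The widest, 2239 bp at chr11:53421749-53423987, was the one at 9303 bp. The start site itself was 1208 bp from the nearest mark, and the marks covered 7.23% of the window. A region missing from these lists cannot be told apart from one below the calling threshold, since the lists give no read number for any place.

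**Figure D2:**
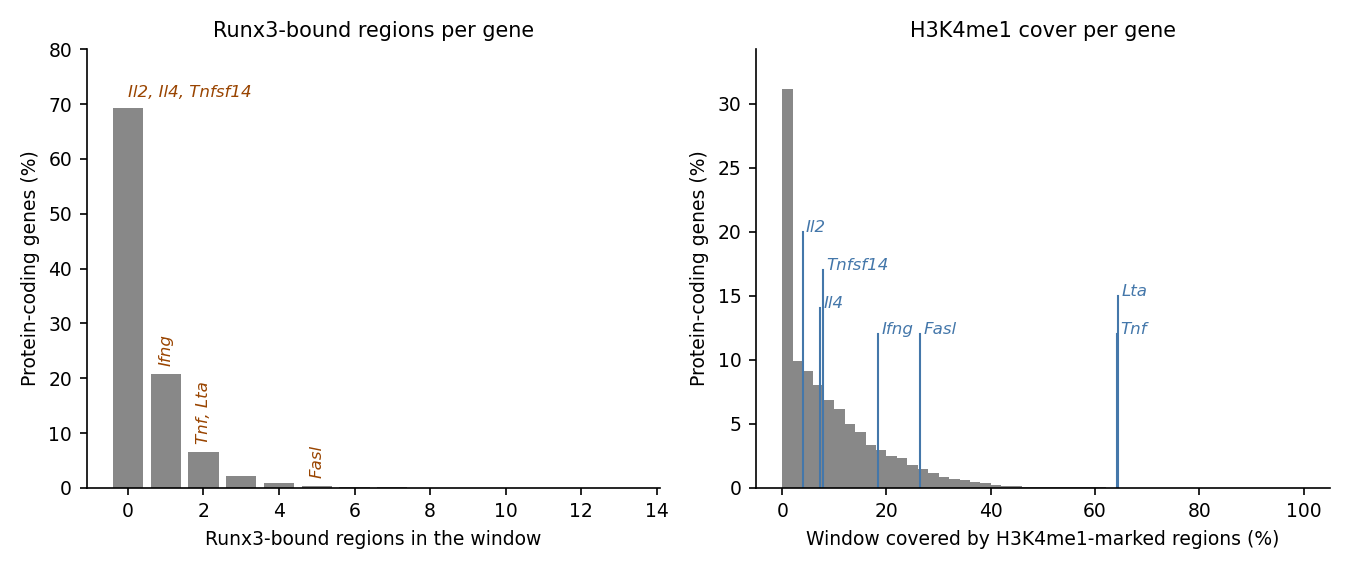
Histograms over all 22350 protein-coding genes (vertical axes, percent of genes) of the number of Runx3-bound regions in the window and of the percent of the window covered by H3K4me1, with the 7 genes marked by name; the heights of the blue lines carry no value. Fasl, with 5 regions, stands among the 0.537% of genes with at least 5, and Tnf and Lta lie at 64.2% and 64.5% cover against a median of 5.96% over all genes.

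Every one of the 8 Runx3-bound regions overlapped an H3K4me1-marked region (100%, exact 95% binomial interval 63.1% to 100%). In the whole list 78.8% did so, or 3889 of 4934. Each of the 8 was covered over its full width, and each had its midpoint inside the marked region, against 66.1% of the list. Intervals cover counting error only, regions are not replicates, and the list's share lies inside the interval. The NIS libraries served as control for both marks, and the part of shared control reads in the overlap was not tested. The Runx3-bound regions had widths of 592 to 1173 bp, with a median of 740.5 bp against 851 bp for the list. The H3K4me1-marked regions that held a Runx3-bound region were 2024 to 5588 bp wide, with a median of 2611 bp (n = 8). The other 69 had a median of 1397 bp and ranged from 446 to 5890 bp, so the groups overlapped. Over the 76705 marked regions the median was 979 bp. Runx3-bound regions overlapped 10.4% of the 77 marked regions and 5.49% of the whole list.

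**Figure D3:**
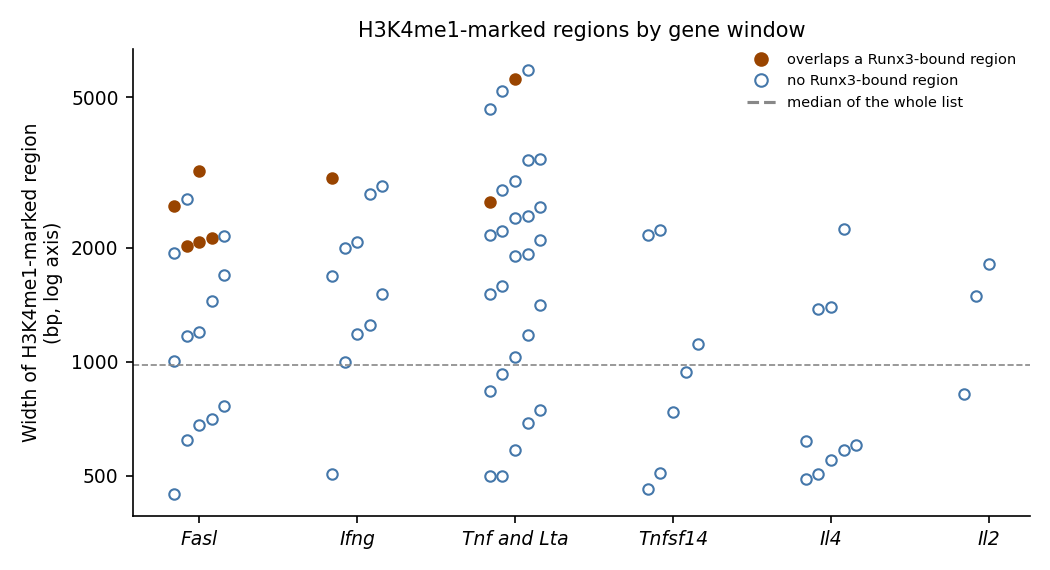
Widths in bp of the H3K4me1-marked regions in the windows, 1 point per region on a log axis, by gene window, with filled points for those that overlap a Runx3-bound region and a dashed line at the median of the whole list (979 bp). The 8 with Runx3 lie between 2024 and 5588 bp, and the 69 without span 446 to 5890 bp.

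A RUNX motif was found in 7 of the 8 Runx3-bound regions (87.5%, exact 95% interval 47.3% to 99.7%), and in 88.8% of the whole list. In the 200 bp around the midpoint it was found in 4 of 8 (50%, interval 15.7% to 84.3%), against 66.0% of the list. The flanking windows of the 8 regions held it as often, 14 of 16 at full width and 8 of 16 in the central 200 bp, whereas in the list the flanks held it in 73.3% and 27.8%. The 8 regions held 22 motifs in 6529 bp, or 3.37 per kb, against 2.07 per kb in their flanking windows. Without the region with the most motifs, a setting chosen after seeing the data, the 7 others held 2.42 per kb against 2.05 in their flanks. The corresponding densities for the whole list were 2.96 and 1.69 per kb. Of the 22 motifs, 10 read TGTGGT, 9 TGTGGC, 3 TGCGGT and none TGCGGC. These shares and densities were not tested for a difference from the list.

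The motif was common outside the bound regions too. It occurred in 60 of the 69 marked regions without Runx3 (87.0%, 1.96 per kb) and in all 8 with Runx3 (2.58 per kb). For all marked regions the shares were 80.7% without Runx3 and 95.3% with it, and the densities 1.91 and 2.15 per kb. The regions with Runx3 are wider, and the shares are not corrected for width.

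**Figure D4:**
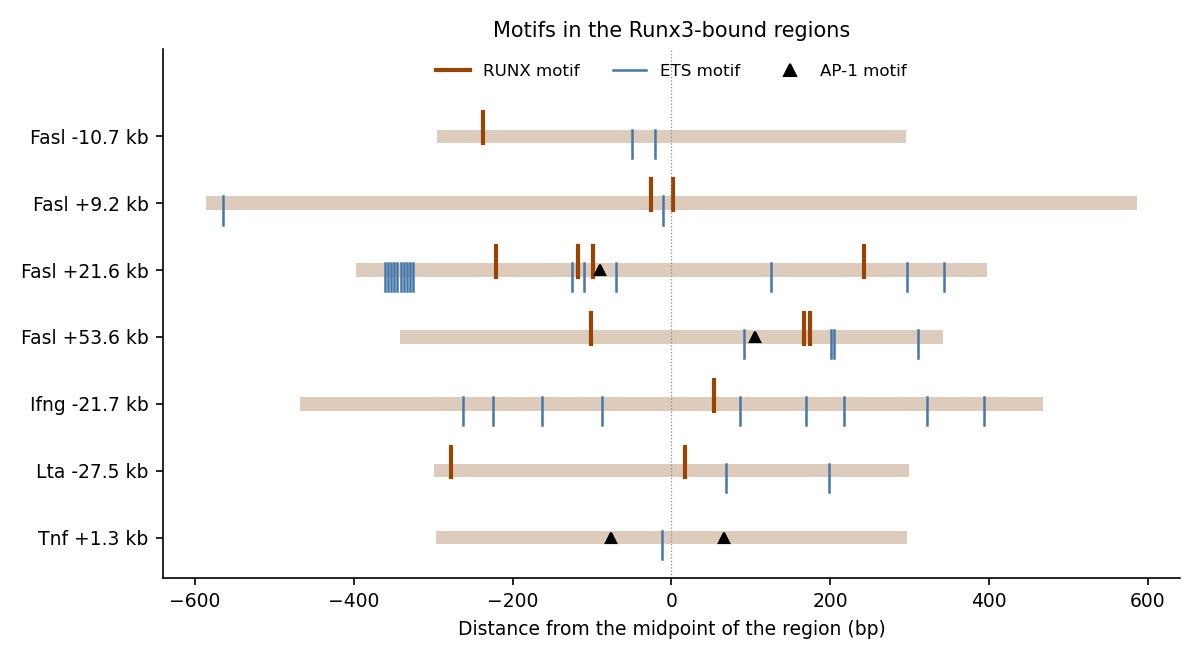
Positions of RUNX (brown), ETS (blue) and AP-1 (triangles) motifs in 7 of the 8 Runx3-bound regions (bars), as distance in bp from each region's midpoint, 1 row per region. Fasl +21.6 kb carries 4 RUNX motifs, Tnf +1.3 kb carries none, and the run of 10 ETS motifs lies at the left of Fasl +21.6 kb.

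Motifs of other factors of T cells were counted on both strands in the same regions. The ETS motif (either the word AGGAAA or the word ending in G, AGGAAG, and likewise those beginning with C, written CGGAAA for the former and written CGGAAG for the latter) occurred in 8 of 8, against 95.0% of the list. The AP-1 motif (TGACTCA or TGAGTCA) occurred in 4 of 8, among them Tnf +1.3 kb, Fasl +21.6 kb and Fasl +53.6 kb (exact 95% interval 15.7% to 84.3%), against 16.5% of the list, and in 4 of their 16 flanking windows. NFAT (TGGAAA) occurred in 7 of 8 (interval 47.3% to 99.7%), against 55.8%, and GATA (either the word AGATAA or the word ending in G, AGATAG, and likewise those beginning with T, written TGATAA for the former and written TGATAG for the latter) in 5 of 8, against 75.3%. The T-box motif GGTGTGA occurred in none, against 13.2%. A RUNX and an ETS motif lay within 50 bp of each other in 5 of 8, against 56.5%. The RUNX and T-box motifs can share bases, and the remaining motifs were counted without regard to overlap. No match says only that these letters are not in the window.

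The promoters were looked at because no Runx3-bound region overlapped any of them. The share of all promoters that overlap one is not given, so this absence is not read as particular to the 7 genes. In the 200 bases before the start site a RUNX motif occurred at Ifng, Il2 and Lta, 3 of the 7, against 31.8% of all promoters. These are given on the gene's own strand, with the motif in capitals.
Ifng promoter (chr10:117877903-117878102, plus strand): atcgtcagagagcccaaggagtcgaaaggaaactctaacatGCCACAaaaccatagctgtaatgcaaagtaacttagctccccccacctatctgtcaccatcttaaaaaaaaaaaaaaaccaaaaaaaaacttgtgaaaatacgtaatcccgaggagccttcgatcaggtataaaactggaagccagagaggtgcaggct
Il2 promoter (chr3:37024882-37025081, minus strand): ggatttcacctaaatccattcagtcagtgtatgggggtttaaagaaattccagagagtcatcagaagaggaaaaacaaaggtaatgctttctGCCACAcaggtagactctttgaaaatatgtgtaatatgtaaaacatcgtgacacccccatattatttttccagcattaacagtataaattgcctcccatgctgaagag
Lta promoter (chr17:35342297-35342496, minus strand): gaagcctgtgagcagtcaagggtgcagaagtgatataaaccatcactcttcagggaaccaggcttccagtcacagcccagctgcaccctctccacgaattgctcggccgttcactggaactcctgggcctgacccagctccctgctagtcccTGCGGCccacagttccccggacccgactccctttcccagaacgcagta
The motif reads TGCGGC at Lta, a word that none of the 8 Runx3-bound regions held. H3K4me1 covered all 200 bases at Tnf, Lta, Fasl and Tnfsf14, and none of them at Ifng, Il2 and Il4. An ETS motif occurred at 6 of the 7 promoters, all but Lta, against 51.1% of all promoters. NFAT motifs occurred at Tnf, Il2, Il4 and Tnfsf14, against 14.1%.

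The genes around these effectors in the same pathways were counted in the same way. Of 11 receptor genes for the 7 ligands, 9 had a Runx3-bound region in the window (81.8%, against 30.8% of all genes). All 11 had H3K4me1 there, against 79.3% of all genes, and 5 had the start site in a marked region, against 17.7%. Il2ra, a subunit of the Il2 receptor, had 5 Runx3-bound regions, against none at Il2 itself. The Il2ra gene body, chr2:11564419-11614818, is longer than that of Il2, so its window is wider. Counts were not corrected for window length. Il4ra, the chain that binds Il4, had 3 and a cover of 51.0%, against none and 7.23% at Il4. Fas, the receptor of Fas ligand, had 1 and a cover of 13.5%. The median cover of the receptors was 21.5%, against 18.5% for the 7 ligands. The ligand median counts Tnf and Lta separately, although their windows overlap almost completely and hold the same regions. Of 10 other T-cell cytokines 4 had a Runx3-bound region (40%), with a median cover of 5.73%, and of 14 other TNF-family ligands 5 had one (35.7%), with a median of 7.89%. Both shares lay near the 30.8% of all genes, and both covers near the all-gene median of 5.96%. Ltb, Cd70 and Il13 in those lists lie in the windows of Tnf, Tnfsf14 and Il4 and share regions with them, the window of Il21 takes in 2 of the 3 marked regions of Il2, and among the receptors the windows of Ltbr and Tnfrsf1a overlap, so the genes of a list are not all separate.

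Over all genes the median share of the gene body covered by H3K4me1 was 4.13%, and 62.4% of genes had some cover. Among markers of cell types, H3K4me1-marked regions overlapped the gene bodies of 5 of 5 T-cell markers, covering 31.5% to 90.4% of each. They also overlapped 3 of 3 B-cell markers, at 25.6% to 53.8%, 2 of 3 myeloid markers, with Lyz2 at 0, and 1 of 2 NK-cell markers, with Ncr1 at 0. The marks thus did not separate T-cell from B-cell markers by count, and do not serve as a check of the labelled cell type. The part of other spleen cells in the marks at the 7 genes was not tested.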

How the data were processed

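Per the labels, chromatin of CD8+ T cells fixed in formaldehyde was sheared (about 300 bp), and sequencing reads (40 to 42 bp) were aligned to mm9 with ELAND; the submitters' processing notes name CASAVA 1.6 and 1.7. The authors joined the repeats, called peaks with MACS against the NIS libraries, and deposited a Runx3 list and an H3K4me1 list of region positions, which give chromosome, start and end but no score or read number. The study's methods state the aligned reads per antibody in total, but the lists give no depth behind a single region, no peak height and no replicate spread.

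Start positions were moved by 1 bp to count from 1. Chromosomes 1 to 19 and X were used. Each gene's window was its GENCODE vM1 body with 50 kb on either side, and the main counts of regions in these windows were repeated over all 22350 protein-coding genes. Overlap needed 1 bp. Motifs were searched in the NCBIM37 sequence, with flanking windows of equal width 5 kb away. Shares have exact 95% binomial intervals (Clopper-Pearson). Python 3.11.15, numpy 2.4.6, scipy 1.17.1 and matplotlib 3.10.9 were used, and the counting was tested on simulated data.

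The 7 genes and the gene lists were chosen with earlier results of these data known. All 7 genes were named, with the Runx3-bound regions in their windows, of which 1 is counted but not reported singly here; H3K4me1-marked regions were named where they overlapped one of these, held a start site or were the widest. The choice to show motifs outside the 200 central bases, the ETS run, the promoters, and motif counts in H3K4me1-marked regions followed the data. Of the other lists, receptors of the 7 genes, other T-cell cytokines, other TNF-family ligands and markers of T, B, myeloid, NK and helper T cells were counted.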

Additional observations from a re-analysis of the deposited data

How the results depend on the processing

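Because the lists are pooled, no replicate could be left out, and no test was possible. No paired analysis was possible because the deposited peak calls merge both repeats. Without scores, a stricter threshold could only be imitated by keeping regions at or above the median width of their list. That left 3 Runx3-bound regions, at Fasl and Ifng (2 genes), and an H3K4me1 cover of 18.5% instead of 20.8% of the windows. With a margin of 10 kb, Ifng lost its Runx3-bound region and all 11 marked ones, and 2 Runx3-bound and 27 H3K4me1-marked regions remained, with a cover of 25.7%. With 25 kb there were 48 marked regions and a cover of 26.0%, and with 100 kb 125 and 17.2%. Joining marked regions within 1000 bp gave 45. At 100 kb the number of genes with a Runx3-bound region was 6, with Il2 and Tnfsf14 added and Il4 still without one. The share of all genes at that margin is not given here, and the 30.8% at 50 kb is not its match. The share of Runx3-bound regions in H3K4me1 was 100% under all 4 alternatives, which could not lower it since each region lies whole within a wide marked region, so this says nothing about stability. The share of Runx3-bound regions with a RUNX motif, 87.5%, became 50% in the central 200 bp and 50% with a stricter 7-base motif (ending in GGT and followed by T or C); both values lie within its wide interval, from 47.3% to 99.7%. In all, 15 of 26 alternatives left the summary values within the tolerance (1.5 times for counts, the exact 95% interval for shares, which is wide for 8 regions and very narrow for the cover of 644447 bp), and 11 moved them, while for single genes 38 of 70 stayed within it and 32 moved. The cause of each move by a margin is its construction, since another span was counted. Without read numbers per place, the absences at Il2, Il4 and Tnfsf14 have no upper limit.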

Other observations

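Among the genes of the same pathways, Cd40lg, a TNF-family ligand of helper T cells, had 2 Runx3-bound regions in its window and a cover of 8.06% by H3K4me1. Il10, a cytokine that restrains inflammation, had none, 15 H3K4me1-marked regions, a start site inside one of them and 53.3% of the gene body covered. Il17a, a cytokine of Th17 cells, had neither mark in its window. Il22, on chromosome 10 like Ifng, had no Runx3-bound region and a cover of 2.28%. Cd4, the helper lineage gene that Runx3 is known to silence, had 2 Runx3-bound regions and a cover of 19.1%. Cd8b1, a CD8 subunit gene, had 7 and 37.9%. Each of these values comes from the same pooled lists, without a replicate error.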
